A study of Phrynocephalus vlangalii with 2 samples.

Results

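Glycosyltransferases build the sugar chains of proteins and lipids 1 sugar at a time, and many sulfotransferases add sulfate to the sugars of such chains. In the deposited transcriptome of the toad-headed lizard Phrynocephalus vlangalii, these enzymes were taken as every assembled gene whose annotation text contains 1 of 8 words, in any case: sialyltransferase, galactosyltransferase, fucosyltransferase, mannosyltransferase, acetylglucosaminyltransferase, acetylgalactosaminyltransferase, xylosyltransferase or sulfotransferase. The rule found 177 of 58458 assembled genes, under 87 of the 4819 annotation texts. The word sulfotransferase also brought in 3 texts whose enzymes act on small molecules or on tyrosine in proteins, and these are described separately. An annotation text is called a name below, and the assembled genes that share 1 name are called its copies. The copies of a name can be related genes, pieces of 1 gene or genes that the annotation confused, and the reads of related genes with 1 name cannot be told apart.

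The series title asks how a cold-blooded animal adapts to high altitude, and the study compared lizards of 2 populations, Madoi and Maqu. Each population gave 1 library of total RNA from adult animals, with liver, lung, heart and muscle given as the tissues. The labels give no sex, no number of animals, no altitude and no shares of the tissues. As each population has only 1 library, there are no replicates and no test was possible, and each value compares these 2 libraries and not the populations.

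An N-linked chain is first assembled on the lipid dolichol in the endoplasmic reticulum, moved to the protein as a block, trimmed, and then branched and capped in the Golgi. O-linked chains start from a single sugar on serine or threonine, and mucin-type, O-mannose and O-fucose chains each have their own starting enzyme. Proteoglycans carry long glycosaminoglycan chains, chondroitin, dermatan, heparan or keratan sulfate, that are sulfated at defined positions. Of these, chondroitin, dermatan and heparan sulfate grow from a short linker. Liver and lung secrete many glycoproteins capped with sialic acid, and heart and muscle need O-mannose chains on dystroglycan to hold their membranes to the matrix.

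Of the 177 assembled genes, 24 had exactly 0 reads in the Maqu library. They may come from another organism than the lizard, so they were left out of the sums per name and are described apart. The other 153 covered all 87 names, with between 8 and 23021 reads in Maqu, and 0 of the 177 were at 0 in Madoi. The 177 took 182782 reads in Madoi, or 0.287% of that library, and 174963 reads in Maqu, or 0.263%. Ratios are log2 ratios of Madoi over Maqu on scaled reads, and their intervals are exact 95% intervals that cover counting error only. A name was called higher or lower in Madoi where the libraries differed by 2-fold or more, the interval left out a ratio of 1, and the summed reads of the libraries reached 10.

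By this rule 2 of the 87 names were higher in the Madoi library and 6 were lower, and 79 were called neither way. The 2 higher names are 2.3% of the members, and 5.89% of all 4702 names were called higher. The 6 lower names are 6.9%, and 7.15% of all names were called lower. The median ratio of the members was -0.12 (95% interval of the median -0.25 to 0.03), against 0.00 (-0.02 to 0.02) for all names. The share called higher lies below that of all names, and the share called lower lies close to that of all names. In RNA from mixed tissue, fewer cells of a type and less RNA per cell cannot be told apart.

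Counting error was small for most members. All 87 names had at least 10 reads, 83 had at least 50, and 30 had at least 1000 reads in each library. Among those 30, the ratios ran from -0.81 to 0.66, the widest counting interval spanned 0.25, and 27 names differed by less than 1.5-fold. The per-length levels were modest. The median RPKM, reads per length and depth, was 2.74 in Madoi and 3.61 in Maqu over the 153 kept copies, and 3.98 and 4.08 over all annotated copies with reads in Maqu.

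**Figure D1:**
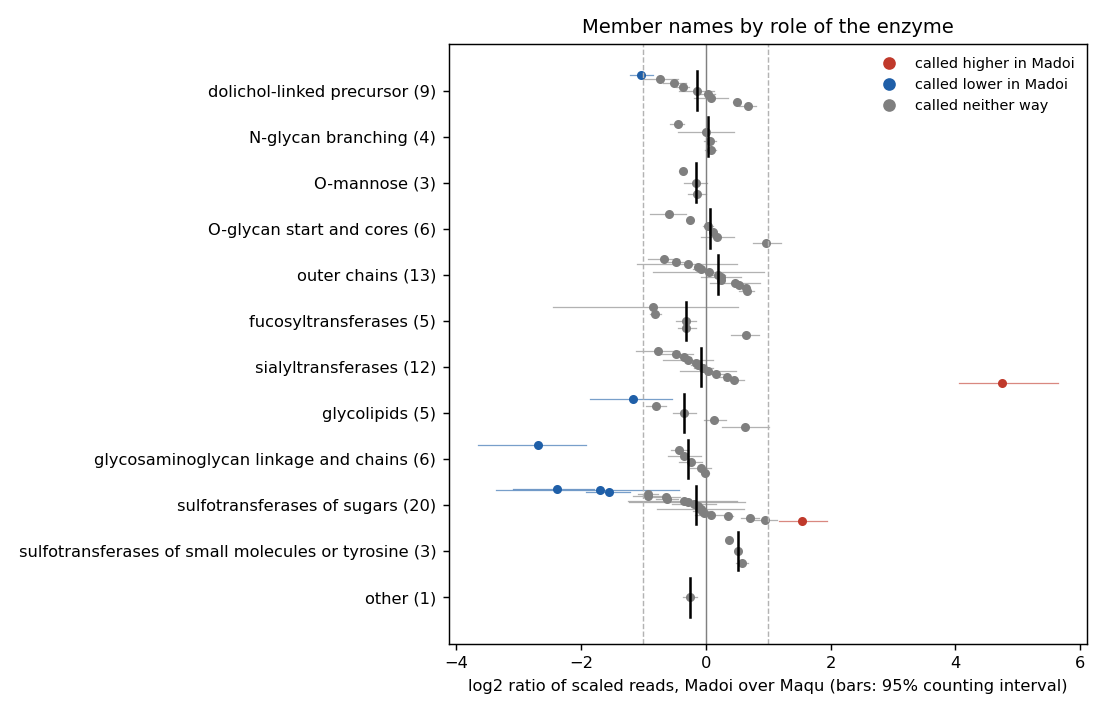
Log2 ratio of scaled reads, Madoi over Maqu (x axis), for the 87 names in 12 groups by the role of the enzyme (y axis, number of names in brackets). Points are names, bars are 95% counting intervals, black ticks are group medians and dashed lines mark 2-fold. Sialyltransferase 7B at 4.75 lies far to the right of the rest. Of the 6 names called lower, 4 belong to glycosaminoglycan linkage and chains or to sulfotransferases of sugars. These groups hold 6 and 20 of the 87 names, and the second also holds 1 name called higher. Over all names, 7.15% were called lower. The 4 lower names had few reads, from 6 to 92 in Madoi.

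Among the 9 names of the dolichol-linked precursor, 1 was called lower, 0 were called higher, and the median ratio was -0.14 (0.09 with the copies at 0 in Maqu). Dolichol-phosphate mannosyltransferase, which makes the lipid-bound mannose used in the endoplasmic reticulum, was the highest of them per length, with an RPKM of 120.11 in Madoi and 81.59 in Maqu. Its 6441 and 4925 reads gave a ratio of 0.50 (0.44 to 0.55). The regulatory subunit named polypeptide 2 had 235 and 239 reads, a ratio of 0.09, while the subunit named polypeptide 3, which anchors the enzyme in the membrane, had 164 and 293 reads, a ratio of -0.73. The value of polypeptide 3 turned to 0.29 with its copy at 0 in Maqu, which had 169 reads.

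The lower name was beta-1,4-N-acetylglucosaminyltransferase, which covers both subunits of the enzyme that adds the second sugar to dolichol. It had 364 Madoi reads and 800 Maqu reads, a ratio of -1.03 (-1.21 to -0.85). That call rests on leaving out 2 copies at 0 in Maqu, with which the ratio was 0.05. At the other end, beta-1,4-mannosyltransferase, which adds the first mannose, had 1021 and 693 reads and a ratio of 0.67. With its copy at 0 in Maqu the ratio was 1.19 and the name was called higher. The other mannosyltransferases of the precursor lay between -0.50 and 0.03.

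In N-glycan branching, 0 of 4 names were called and the median ratio was 0.04. Over the 11 kept copies of these names the median was -0.45, with 8 below 0 and 2 called lower. Of all annotated copies, 9.56% were called lower. These enzymes decide how many antennae an N-linked chain carries. The name alpha-1,3-mannosyl-glycoprotein beta-1,2-N-acetylglucosaminyltransferase, whose enzyme opens the way to complex chains, had 2141 Madoi reads and 2203 Maqu reads, a ratio of 0.07. The next enzyme, on the alpha-1,6 arm, had 1051 and 1551 reads, a ratio of -0.45. The enzyme that places the bisecting sugar, beta-1,4-mannosyl-glycoprotein beta-1,4-N-acetylglucosaminyltransferase, had 81 and 87 reads, a ratio of 0.01. Most reads fell to alpha-1,3-mannosylglycoprotein beta-1,4-N-acetylglucosaminyltransferase A/B, with 2371 and 2427, a ratio of 0.08. The copies called lower carry this name and are described further on.

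The 3 names of the O-mannose pathway were called neither way, with ratios of -0.37 to -0.14. Dystroglycan needs this pathway, and muscle disease follows from its loss in people. The name beta-1,3-N-acetylgalactosaminyltransferase 2, whose enzyme extends the chain, had 5888 Madoi reads and 8232 Maqu reads, a ratio of -0.37 (-0.42 to -0.32). The starting enzyme, dolichyl-phosphate-mannose-protein mannosyltransferase, had 738 and 877 reads, a ratio of -0.14. The sum hides unlike copies, and its direction turns on 1 of them. That copy, with 258 Madoi reads and 586 Maqu reads and a ratio of -1.07, carries gene ontology text for the extracellular region and membrane and none for a mannosyltransferase, and without it the name had 480 and 291 reads, a ratio of 0.83 (0.62 to 1.05).

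Among the 6 names for the start and cores of O-linked chains, 0 were called and the median ratio was 0.08. Polypeptide N-acetylgalactosaminyltransferase, the family that starts mucin-type chains, was spread over 17 kept copies with 11364 Madoi reads and 14622 Maqu reads. Its summed ratio was -0.25 (-0.29 to -0.22), and its copies ran from -0.99 to 0.45 with 12 below 0 and 0 called. The next enzyme, glycoprotein-N-acetylgalactosamine 3-beta-galactosyltransferase, makes the common core and had 2550 and 2688 reads, a ratio of 0.03. Polypeptide N-acetylglucosaminyltransferase, which places single sugars on proteins of the cytosol and nucleus, was the name with most reads in this group, 20427 and 20225, a ratio of 0.12. The nearest to a call was beta-1,3-galactosyl-O-glycosyl-glycoprotein beta-1,6-N-acetylglucosaminyltransferase, which branches the core, with 473 and 260 reads and a ratio of 0.97 (0.75 to 1.20). The mucin-type enzyme N-acetylglucosaminyltransferase 3 stood lowest, with 162 and 264 reads and a ratio of -0.59.

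The 13 names of outer chains, mostly galactose and N-acetylglucosamine repeats on which other sugars are set, had a median ratio of 0.20 with 0 called. Beta-1,4-galactosyltransferase 3 had 9572 Madoi reads and 7095 Maqu reads, a ratio of 0.54 (0.50 to 0.59). Beta-1,4-galactosyltransferase 1, which in mammals is also part of the enzyme that makes lactose, had 4384 and 5158 reads, a ratio of -0.12. Both ends of the group stayed under 2-fold. N-acetyllactosaminide 3-alpha-galactosyltransferase was lowest, with 209 and 360 reads and a ratio of -0.67, and beta-1,3-N-acetylglucosaminyltransferase 5 was highest, with 1537 and 1051 reads and a ratio of 0.66. With its copy of most reads in place of the sum, the ratio of this highest name was -0.05.

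The name beta-1,4-N-acetylgalactosaminyltransferase 2 held copies of different kinds. In mammals this enzyme makes the Sd(a) antigen of blood and gut. The copy whose gene ontology text names acetylgalactosaminyltransferase activity in the Golgi had 4709 Madoi reads and 2502 Maqu reads, a ratio of 1.02 (0.95 to 1.09), just over 2-fold. A further kept copy, with 2662 and 4195 reads and a ratio of -0.55, carries gene ontology text for the inner mitochondrial membrane and DNA replication. Summed, they gave a ratio of 0.25, so the name was called neither way although the copy with the matching text was called higher. That call was lost when libraries were scaled by their totals, at 0.97.

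Of the 5 fucosyltransferase names, 0 were called and 4 lay below 0, with a median ratio of -0.32. Peptide-O-fucosyltransferase, which sets fucose on repeats within proteins, had 1555 Madoi reads and 2934 Maqu reads, a ratio of -0.81 (-0.90 to -0.72). The core fucosylation enzyme of N-linked chains, glycoprotein 6-alpha-L-fucosyltransferase, had 692 and 923 reads, a ratio of -0.31. Galactoside 3-L-fucosyltransferase 11 had 564 and 761 reads, a ratio of -0.32. Only alpha-1,3-fucosyltransferase 10 lay above 0, with 405 and 281 reads and a ratio of 0.64. The remaining name, galactoside alpha-1,3-fucosyltransferase 4, rested on 7 and 14 reads.

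Sialyltransferase 7B showed the widest difference of the 87 names when copies at 0 in Maqu were left out. It transfers sialic acid to N-acetylgalactosamine at the base of O-linked chains. A single assembled gene with an effective length of 1387 bases carried this name, with 386 Madoi reads and 15 Maqu reads. Per length that is an RPKM of 4.36 in Madoi and 0.16 in Maqu. The ratio was 4.75 (4.06 to 5.65), or 26.9-fold (16.6 to 50.1). Among kept copies the next highest ratio of a name was 1.54 and that of a copy was 1.73. The copies at 0 in Maqu, described further on, include larger folds, and with all copies summed the next highest name reached 2.53.

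Differences of this size were not rare in the table. Of the 26887 assembled genes with 100 or more summed reads and some in Maqu, 538, or 2%, had a ratio as high or higher, and so did 290 of the 9107 annotated ones, or 3.18%. Some markers of tissues not given in the labels also differed by such amounts. Of the 3 brain markers, GABA A receptor gamma 2 had 1588 Madoi reads and 61 Maqu reads, a ratio of 4.80, the delta subunit had 20 and 13, a ratio of 0.71, and synaptic vesicle glycoprotein 2 had 3.29 (7.87 with copies at 0 in Maqu). Of the 4 pancreas markers, carboxypeptidase A1 and elastase II were lower in Madoi, at -9.71 and -8.58. Chymotrypsin and elastase I were at -4.58 and -9.36, but at 1.65 and -0.04 with copies at 0 in Maqu. The part of such tissue in the 7B value was not tested. In the authors' deposited table, sialyltransferase 7B was not marked significant, with an FDR of 0.472.

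**Figure D2:**
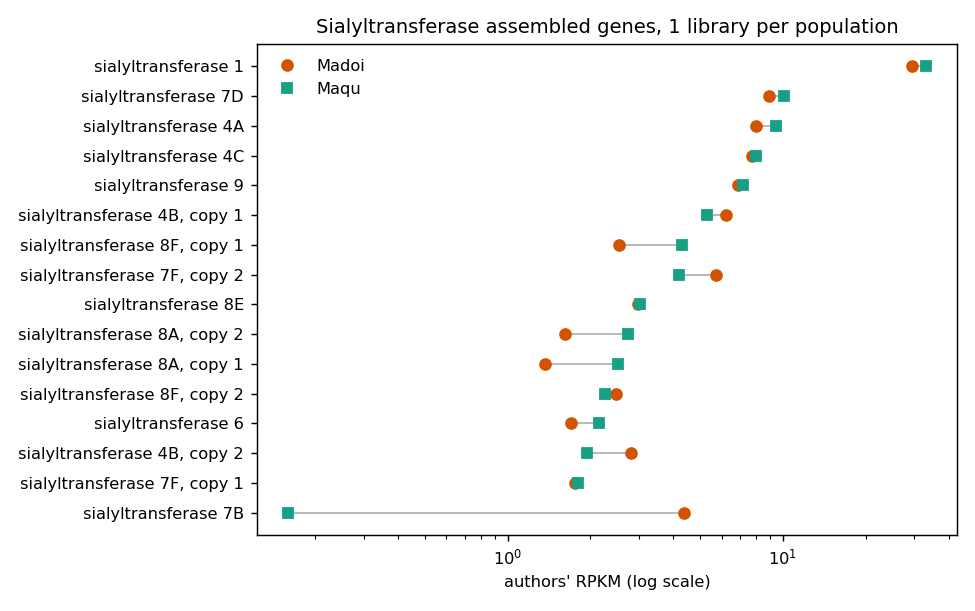
RPKM as given by the authors (x axis, log scale) for the 16 sialyltransferase assembled genes (y axis), in the Madoi library (circles) and the Maqu library (squares), 1 library each. Sialyltransferase 7B runs from 0.16 in Maqu to 4.36 in Madoi, and for the other 15 the circle and square lie less than 2-fold apart.

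The other 11 sialyltransferase names were called neither way, with ratios of -0.77 to 0.46 and a median of -0.12. Sialyltransferase 1, which caps N-linked chains and is known as a liver enzyme, was the most abundant per length, with an RPKM of 29.54 in Madoi and 33.01 in Maqu. Its 3644 and 4361 reads gave a ratio of -0.15 (-0.21 to -0.09). Sialyltransferases 7D and 7F, relatives of 7B that act on sialylated O-linked chains or gangliosides, had ratios of -0.12, with 1103 and 1295 reads, and 0.46, with 699 and 550 reads. Both ratios lay far below that of 7B.

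Sialyltransferases 4A, 4B and 4C, which cap galactose ends, had ratios of -0.35, 0.34 and -0.04. Sialyltransferase 9, which makes the simplest ganglioside from lactosylceramide, had 1036 Madoi reads and 1000 Maqu reads, a ratio of 0.16 (0.03 to 0.29). By RPKM its order was the opposite, with 6.9 in Madoi and 7.18 in Maqu. The enzymes that add sialic acid to sialic acid were the lowest, with ratios of -0.77 for 8A, from 111 and 204 reads, and -0.48 for 8F, from 178 and 268 reads. Their relative 8E had 82 and 86 reads, a ratio of 0.04.

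Of the 5 glycolipid names, 1 was called lower, 0 were called higher, and the median ratio was -0.34 (0.14 with copies at 0 in Maqu). The lower one was 2-hydroxyacylsphingosine 1-beta-galactosyltransferase, the enzyme of galactosylceramide, a main lipid of myelin. Its copy with reads in both libraries had 29 and 71 of them, a ratio of -1.17 (-1.86 to -0.54). A copy at 0 in Maqu had 352 reads in Madoi, and with it the name reversed to 2.53. Lactosylceramide 4-alpha-galactosyltransferase, which starts the globo series, had 475 and 893 reads, a ratio of -0.80. Globoside alpha-N-acetylgalactosaminyltransferase, which lengthens that series to the Forssman lipid, had 147 and 102 reads, a ratio of 0.63.

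The 6 names that build the glycosaminoglycan linker and chains all had ratios below 0, as did 2341 of all 4702 names. The 6 ran from -2.69 to -0.01, with a median of -0.29 and 1 called lower. The lower one was galactosylxylosylprotein 3-beta-galactosyltransferase, which adds a galactose of the linker on which both chondroitin and heparan sulfate grow. It had 14 Madoi reads and 100 Maqu reads, a ratio of -2.69 (-3.65 to -1.91), or 6.43-fold lower (-1.66 with a copy at 0 in Maqu that had 15 reads). The enzymes before it in the linker lay closer to 0. Protein xylosyltransferase, which sets the first sugar, had 736 and 1063 reads, a ratio of -0.42, and xylosylprotein 4-beta-galactosyltransferase had 205 and 281, a ratio of -0.34. N-acetylgalactosaminyltransferase I, which starts chondroitin chains, had 574 and 657 reads, a ratio of -0.08 (-0.25 to 0.08). EXTL3, which starts heparan chains, had 3269 and 3564, a ratio of -0.01 (-0.08 to 0.05). Both intervals include a log2 ratio of 0.

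Enzymes of the same chains whose names hold none of the 8 words were also read, and were chosen after values had been seen. None of 8 such names was called. The heparan polymerases EXT1 and EXT2 had ratios of -0.22 and -0.38, chondroitin polymerizing factor 2 had 0.22, and the epimerases that make dermatan and heparan units from their precursors had -0.76 and 0.33. The glucuronosyltransferase that completes the linker had 37 Madoi reads and 42 Maqu reads, a ratio of -0.07. Ceramide glucosyltransferase, which starts most glycolipids, had 0.56, and the phosphotransferase that starts the dolichol-linked precursor had 0.01.

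The 20 sulfotransferases of sugars had a median ratio of -0.16, with 1 called higher, 3 called lower and 15 below 0. All 3 lower names were among the 7 chondroitin and dermatan sulfotransferases, whose median was -0.64. Neither this set nor the heparan set below was among the planned groups. Over all names 7.15% were called lower, a share not matched for reads. Among annotated copies, 457 of 2445 with under 100 reads together were called lower, and 404 of 3699 with at least 100 but under 1000. Chondroitin 4-sulfotransferase 11 had 25 Madoi reads and 143 Maqu reads, a ratio of -2.38 (-3.08 to -1.79), or 5.22-fold lower. Chondroitin 6-sulfotransferase 7 had 92 and 291 reads, a ratio of -1.55 (-1.91 to -1.21), and its copies differed, at -1.80 from 73 and 275 reads and at 0.35 from 19 and 16. Chondroitin 6-sulfotransferase 3 rested on 6 and 22 reads, a ratio of -1.69 (-3.36 to -0.42), and is not called where at least 50 reads are asked for. These enzymes decide at which carbon of N-acetylgalactosamine chondroitin carries its sulfate.

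Not every enzyme of chondroitin sulfation was lower. Dermatan 4-sulfotransferase 1 had 901 Madoi reads and 596 Maqu reads, a ratio of 0.71 (0.56 to 0.86). The enzyme that makes the doubly sulfated unit, N-acetylgalactosamine 4-sulfate 6-O-sulfotransferase, had the most reads of the 7, 2674 and 3112, and a ratio of -0.11. Chondroitin 4-sulfotransferase 12 and the uronyl 2-O-sulfotransferase UST had ratios of -0.62 and -0.64. The lower names were the 3 with the fewest reads of the 7, and the lung marker surfactant protein A was also lower in Madoi, with 6866 and 16052 reads and a ratio of -1.12. The part of lung content in these values was not tested.

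None of the 7 heparan sulfotransferases was called, and their median ratio was -0.13. These set the sulfate patterns that growth factors and antithrombin bind. HS6ST1 had 6026 Madoi reads and 7108 Maqu reads, a ratio of -0.13 (-0.18 to -0.08), and NDST2, which prepares the chain for the others, had 2536 and 2782, a ratio of -0.02. The glucosamine 3-sulfotransferases 1 and 3 were the lowest, both with a ratio of -0.92, from 219 and 448 reads and from 454 and 930. HS2ST1 was the highest, with 3404 and 2857 reads and a ratio of 0.36.

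The sulfotransferase called higher was galactose-3-O-sulfotransferase 3, which sulfates galactose ends of protein-bound chains. It had 214 Madoi reads and 79 Maqu reads, a ratio of 1.54 (1.17 to 1.94), or 2.91-fold. Its relative galactose-3-O-sulfotransferase 4 had 123 and 151 reads, a ratio of -0.19. Carbohydrate 4-sulfotransferase 9 came closest to a call among the rest, with 591 and 331 reads and a ratio of 0.95 (0.75 to 1.14).

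**Figure D3:**
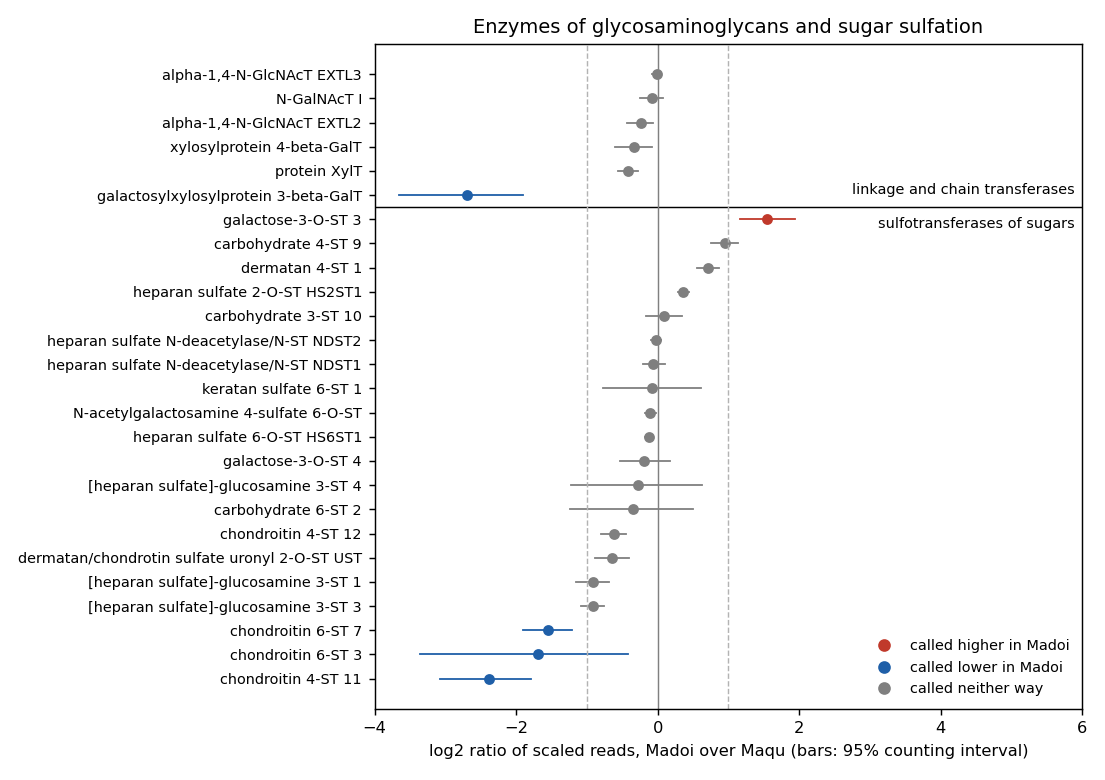
Log2 ratio of scaled reads, Madoi over Maqu (x axis), with 95% counting intervals, for the 6 names of glycosaminoglycan linkage and chains and the 20 sulfotransferases of sugars (y axis; GalT, XylT, GlcNAcT, GalNAcT and ST stand for the transferase words). Dashed lines mark 2-fold; 4 names are called lower, from -2.69 to -1.55, and galactose-3-O-sulfotransferase 3 is called higher at 1.54.

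Summed by name, the 3 sulfotransferases of small molecules or tyrosine all had ratios above 0, and none was called. Their 6 kept copies had a median of -0.28, with 3 above 0, 3 below 0 and 2 called lower. Of all annotated copies, 9.56% were called lower. Alcohol sulfotransferase, a name given to enzymes that in liver conjugate steroids and bile acids, held the most abundant copy of all members per length. That copy had an RPKM of 346.35 in Madoi and 243.36 in Maqu. Its deposited protein match differs from those of the other copies, so it may have another role. Summed over 4 copies the name had 33682 and 25473 reads, a ratio of 0.51 (0.49 to 0.54). The most abundant copy held 96.6% of the name's Madoi reads, and the other copies had ratios of -1.32, -1.01 and -0.92. Aryl sulfotransferase, which conjugates phenols, had 9815 and 8215 reads, a ratio of 0.37, and protein-tyrosine sulfotransferase had 2199 and 1588, a ratio of 0.58. The liver markers did not share 1 direction, with fibrinogen alpha and beta chains at -0.87 and -0.73 and apolipoprotein A-I at 1.23 on the log2 scale, and the part of liver content in these values was not tested. The remaining name, collagen beta-1,O-galactosyltransferase, which sets galactose on hydroxylysine of collagen, had 1133 and 1455 reads, a ratio of -0.25.

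Taken copy by copy, 5 of the 153 assembled genes were called higher and 17 were called lower. The 5 are 3.27%, and 7.76% of all 11552 annotated assembled genes with reads in Maqu were called higher. The 17 are 11.1%, and 9.56% of all annotated ones were called lower. The median of the copies was -0.19 (-0.31 to -0.04), against -0.05 (-0.07 to -0.04) for all annotated ones. Low depth went with lower ratios in the whole table: annotated copies with under 100 reads together had a median of -0.27, those with at least 100 but under 1000 reads -0.13, and those with 1000 or more 0.03. Leaving out copies at 0 in Maqu while keeping copies at 0 in Madoi lowers the ratios of low-read copies by construction. The members' medians in these classes were -0.26 over 34 copies, -0.48 over 59 and -0.05 over 60.

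**Figure D4:**
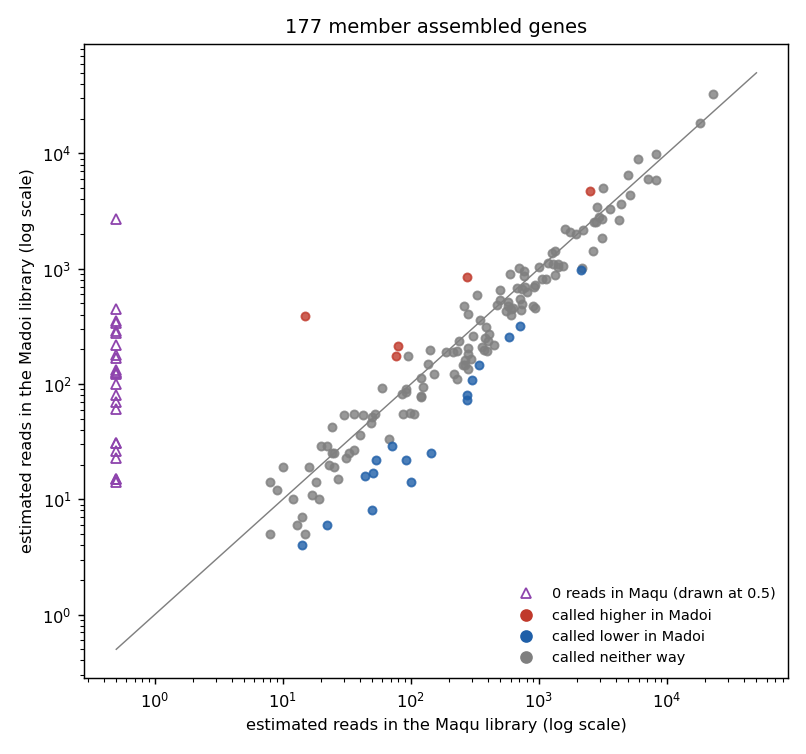
Estimated reads of the 177 member assembled genes in the Maqu library (x axis, log scale) and the Madoi library (y axis, log scale), with a line of equal reads. The 24 copies at 0 in Maqu are open triangles drawn at 0.5, most of the other 153 follow the line from 8 to 23021 Maqu reads, and sialyltransferase 7B lies apart at 15 and 386.

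Copies of 1 name did not always have like ratios. Of 34 names with more than 1 kept copy, 12 had copies more than 1 log2 unit apart, and the median distance between the lowest and highest copy was 0.79. In 8 names called neither way a copy was called lower, and only 1 of the 34 names had copies called in both directions. Some of the outlying copies had few reads. The matching shares over all names with more than 1 copy were not counted, so no comparison with other genes is made. N-acetyllactosaminide beta-1,3-N-acetylglucosaminyltransferase, which builds poly-N-acetyllactosamine chains, had a main copy with 5042 Madoi reads and 3160 Maqu reads, a ratio of 0.78, and a copy with 22 and 92 reads at -1.93. Beta-1,3-N-acetylglucosaminyltransferase 5, a name known for starting the lacto series of glycolipids, had a copy with 843 and 273 reads at 1.73 (1.54 to 1.94). Its other copy had 694 and 778 reads, at -0.05. The deposited protein matches of these copies differ, so the copy at 1.73 may have another role.

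Peptide-O-fucosyltransferase had a copy with 8 and 50 reads at -2.46, beside its main copy with 1436 and 2654 reads at -0.78. In alcohol sulfotransferase the main copy, with 32550 and 23021 reads, had a ratio of 0.61, while a copy with 980 and 2130 reads was called lower at -1.01 (-1.12 to -0.90). The branching enzyme alpha-1,3-mannosylglycoprotein beta-1,4-N-acetylglucosaminyltransferase A/B had a main copy with 2097 and 1743 reads at 0.38 and copies called lower at -1.36, from 108 and 301 reads, and -1.11, from 146 and 341. Their protein accessions in the table differ from that of the main copy. Beside these, dolichyl-phosphate-mannose-protein mannosyltransferase was the only name with copies called in both directions, at -1.07 and 1.32.

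**Figure D5:**
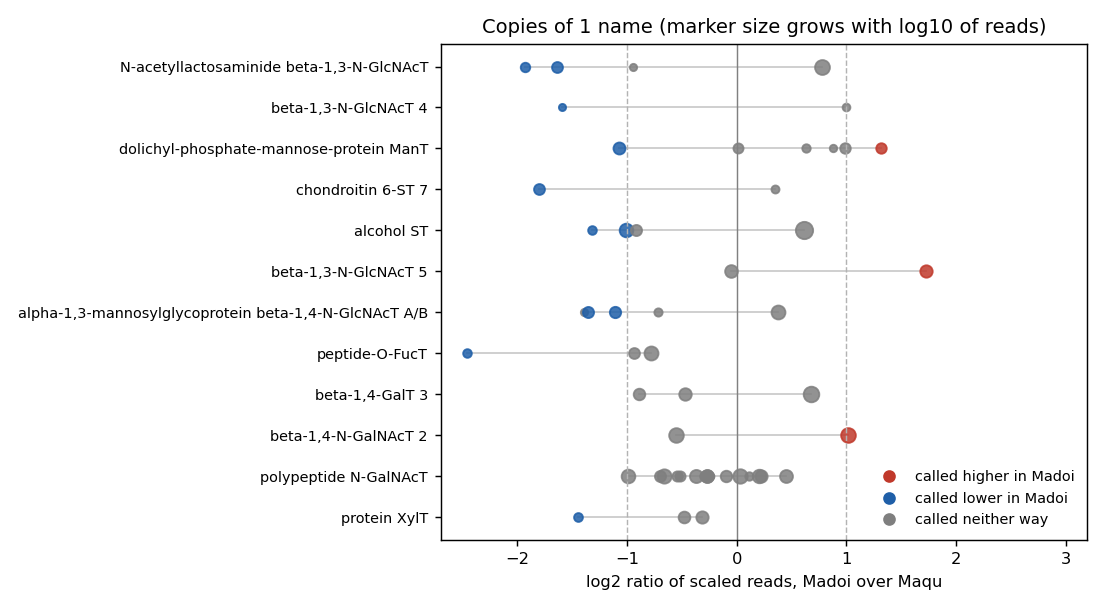
Log2 ratio of scaled reads, Madoi over Maqu (x axis), of each kept copy for the 12 names whose copies lie more than 1 log2 unit apart (y axis; GlcNAcT, GalNAcT, GalT, ManT, FucT, XylT and ST stand for the transferase words). Marker size grows with the log10 of reads and dashed lines mark 2-fold; in N-acetyllactosaminide beta-1,3-N-GlcNAcT the copies run from -1.93 to 0.78.

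The 24 copies at 0 in Maqu belonged to 17 names and held 5917 reads in Madoi, 3.24% of all member reads there (exact 95% interval 3.16 to 3.32). They are 13.6% of the members, and 20.2% of all annotated assembled genes were at 0 in Maqu. A count of 0 allows up to 3 reads, or 0.0444 CPM (counts per library of a standard size) in Maqu. Their Madoi reads ran from 14 to 2679 with a median of 123, and 14 of the 24 had at least 100. They were shorter than the kept copies, with a median effective length of 508 against 1270 bases. For 5 of them the table gives the same protein accession as for a kept copy of the name, and for 3 it gives none.

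The copy with most reads was one of beta-1,4-N-acetylgalactosaminyltransferase 2, with 2679 in Madoi, at least 963.8-fold higher against 3 reads. Its gene ontology text speaks of lipid particle, microtubule and the response to hypoxia and names no sugar transfer, so its name may be wrong. The others of the top 5 were beta-1,4-mannosyltransferase with 448 reads, at least 161.2-fold higher, 2-hydroxyacylsphingosine 1-beta-galactosyltransferase with 352, at least 126.6-fold, beta-1,4-N-acetylglucosaminyltransferase with 340, at least 122.3-fold, and polypeptide N-acetylgalactosaminyltransferase with 289, at least 104.0-fold. Of the 24 copies, 10 belonged to the dolichol-linked precursor and 0 to sialyltransferases or sulfotransferases of sugars. The kept copies of these groups numbered 12, 16 and 25. With all copies summed, 4 names were called higher and 4 lower, and 11.6% and 6.33% of all 4819 names were.

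Other enzymes of the pathway were read as 29 names, which supply the transferases, move or trim chains, or remove sialic acid. The planned list also held sugar nucleotide transporters, the enzyme that makes the sulfate donor, and dolichol kinase. Those are not among the 29, nor are most of the planned oligosaccharyltransferase subunits. Of the 29, 1 (3.45%) was called higher and 2 (6.9%) were called lower, against 5.89% and 7.15% of all names, and the median ratio was -0.12. Glucosamine-phosphate N-acetyltransferase, a step in making UDP-N-acetylglucosamine, had 2313 Madoi reads and 255 Maqu reads, a ratio of 3.29 (3.10 to 3.48). The steps on either side of it were not higher: glucosamine--fructose-6-phosphate aminotransferase, which controls entry to this pathway, had 3385 and 4553 reads, a ratio of -0.32, and phosphoacetylglucosamine mutase had 573 and 796, a ratio of -0.36.

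CMP-sialic acid synthetase, which activates sialic acid for all sialyltransferases, was lower, with 140 Madoi reads and 411 Maqu reads and a ratio of -1.44 (-1.73 to -1.16). The earlier steps of sialic acid, the bifunctional epimerase and kinase and the sialic acid synthase, had ratios of 0.40 and -0.03. UDPglucose 6-dehydrogenase, which makes the glucuronic acid donor of glycosaminoglycans, was also lower, with 1649 and 3778 reads and a ratio of -1.09, while UDP-glucuronate decarboxylase, which turns that donor into the xylose donor, had 2861 and 1787 reads and a ratio of 0.79. The oligosaccharyltransferase names, which move the dolichol-linked block to proteins, had ratios of -0.12 and -0.09. The 5 trimming enzymes ran from -0.60 to -0.05 (-0.60 to 0.74 with copies at 0 in Maqu), and the 2 sialidase names, which remove sialic acid, had -0.87 and -0.41. UDP-glucose 4-epimerase, which makes the galactose donor, turned from -0.64 to 1.63 with its copies at 0 in Maqu.

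Of the 177 members, 12 were marked in the authors' deposited table as significant, and 9 of these were copies at 0 in Maqu. The share of all assembled genes with that mark was not counted. Whether members were marked more or less often than other genes is therefore not known here. The marked members in the authors' deposited table had an FDR of up to 0.435, so the mark there did not mean an FDR under 0.05. Only the beta-1,4-N-acetylgalactosaminyltransferase 2 copy at 0 in Maqu was both marked and under that limit in the authors' deposited table, with an FDR of 3.22e-07. The most abundant alcohol sulfotransferase copy was also under it in the authors' deposited table, with an FDR of 0.0477. It was not marked there, and its log2 fold change was 0.51. The marked members with reads in Maqu were, in the authors' deposited table, beta-1,3-N-acetylglucosaminyltransferase 5, beta-1,4-N-acetylgalactosaminyltransferase 2 and beta-1,4-N-acetylglucosaminyltransferase, 1 copy each, with log2 fold changes of 1.64, 1.19 and -1.13.

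Markers of the labelled tissues were present in both libraries, here with all copies summed. Cardiac troponin T had 71462 Madoi reads and 41675 Maqu reads, a ratio of 0.89, and cardiac troponin I had 0.50. Phospholamban and natriuretic peptide A, also of heart, had -0.42 and -0.09. Fast skeletal troponin T had 135427 and 130516 reads, a ratio of 0.16, and skeletal troponin C had 0.41. Ryanodine receptor 1 and fast skeletal troponin I had -0.23 and -0.05. Neither the heart nor the skeletal muscle markers shared 1 direction. The lung marker Nkx-2.1 had 222 and 625 reads, a ratio of -1.38. The B cell markers CD79A and CD79B had ratios of 1.55 and 1.30. The part of these differences in the members' ratios was not tested.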

How the data were processed

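The authors deposited 1 table for the whole series, with an assembled gene per line. Per the series' design text they used Trinity and BLAST; which aligner and counting tool were used is not given in the sources used here. Expected counts, that is estimated reads with decimals, were deposited by the authors for each assembled gene and sum to 63636521 in Madoi and 66401051 in Maqu. The authors also deposited RPKM, a log2 fold change of Madoi over Maqu, and p-values with FDR, whose test is likewise unstated. RPKM ratios were within 0.1 log2 of the ratio of counts per library total for 142 of the 153 copies with reads in Maqu and differed by up to 0.36 in the other 11; all 22 called copies were at least 2-fold apart in RPKM too.

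Expected counts were rounded to whole numbers. Libraries were scaled by TMM (edgeR 4.0.16, R 4.3.3), the factor being 0.983 in Madoi and 1.02 in Maqu. Copies with 0 reads in Maqu were left out, and the rest were summed by annotation text. Ratios used a pseudocount of 0.5 reads, and intervals are Clopper-Pearson intervals (scipy 1.17.1) of the share of reads in Madoi. Reads are not independent molecules, so intervals and the limit from a count of 0 show counting error alone. No model was fitted across genes, because there is 1 library per population. Named members are sialyltransferase 7B, each called name with at least 50 reads, the 2 highest and 2 lowest ratios and the name with most reads of each role group, and the 5 copies at 0 in Maqu with most reads; further members were chosen after their values were seen. The members and lists were chosen with earlier results of these data known. On simulated data for the Madoi against Maqu comparison, with 58458 assembled genes, the calls recovered 97% of 100 genes changed 3-fold and 100% of 100 changed 8-fold, and 0.932% of unchanged ones were called. The simulated reads held counting error alone, and only genes with at least 50 expected reads together were changed. These shares therefore give no error rate for differences between animals or tissue mixes, nor the recovery at fewer reads. Columns of other samples numbered 0.

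No sequence is shown, as no sequence table or genome was used here. The annotation texts are the deposited table's, and protein accessions were not turned into names.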

Additional observations from a re-analysis of the deposited data

How the results depend on the processing

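Each choice was changed alone: scaling by library totals or by median-of-ratios size factors (DESeq2 1.42.0, with 0.96 in Madoi and 1.04 in Maqu), no filter or at least 50 reads, a 4-fold threshold, no counting interval, a pseudocount of 5 reads, all copies summed, copies beyond a log2 ratio of 5 left out, the highest copy in place of the sum, sulfotransferases left out and, chosen after seeing the data, copies with unrelated gene ontology text left out. The median of the members stayed within its interval under each of these. At 4-fold, 1 name was higher and 2 lower, and 1 assembled gene was higher and 3 lower, since the threshold is stricter. With all copies summed, 4 names and 29 assembled genes were higher, because the copies at 0 in Maqu then count; beta-1,4-N-acetylglucosaminyltransferase turned to 0.05 and 2-hydroxyacylsphingosine 1-beta-galactosyltransferase to 2.53. Without sulfotransferases, 1 name was higher and 3 lower, and copies at 0 in Maqu held 4.9% of member reads in Madoi in place of 3.24%. Without copies with unrelated gene ontology text that share was 1.83%, as the copy with 2679 reads is then gone, and 3 names were higher. Of the named members, 7 changed sign under some setting, 2 of them called; the other 5 include dolichyl-phosphate mannosyltransferase polypeptide 3 with all copies, at 0.29, and dolichyl-phosphate-mannose-protein mannosyltransferase without its copy with unrelated text, at 0.83. No paired analysis was possible because each population has 1 library, and no library could be left out for the same reason. Scaling by library totals left 4 assembled genes called higher in place of 5.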

Other observations

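The pathway labels in the deposited table group the kept copies in a further way. Of 15 copies placed in chondroitin sulfate synthesis, 5 were called lower and 0 higher, with a median log2 ratio of Madoi over Maqu of -0.55. Heparan sulfate synthesis held 14 copies, with 2 lower, 0 higher and a median of -0.33, and shares its linker enzymes with the chondroitin group. Keratan sulfate held 19 copies, with 2 lower, 0 higher and a median of -0.31. Its summed reads went the other way, with 23591 in Madoi and 21294 in Maqu. Over all annotated copies, 9.56% were called lower and 7.76% higher. Calls of lower were more common at low depth: 457 of 2445 annotated copies with under 100 reads together, and 404 of 3699 with at least 100 but under 1000. These pathway groups hold the same copies as the groups by role and add no further data.

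Among glycolipids, the lacto and neolacto series held 20 copies, with 3 lower, 1 higher and a median of -0.47. Of these 20 copies 16 lay below 0, and of all 11552 annotated copies 6179 did. Summed, the 20 copies had 22667 Madoi reads and 19668 Maqu reads. The median, which counts each copy alike, and the summed reads therefore differed in direction. The ganglio series, the main glycolipids of nerve, held 14 copies, with 1 higher, which is sialyltransferase 7B, 0 lower and a median of 0.14. The globo series held 9 copies with 0 called and a median of -0.34. By gene ontology text, 113 kept copies named the Golgi and had a median of -0.16 (-0.32 to -0.04). All 591 annotated copies with Golgi text had -0.09. The endoplasmic reticulum was named by 27 kept copies, with a median of -0.27 (-0.78 to 0.03). All 614 annotated copies with that text had -0.06. Both of these wider medians lie within the members' intervals.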
